A study of Ursus arctos with 12 samples.

Results

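The genes described are 9 interferon response genes of brown bear muscle, STAT2, STAT3, IRF1, IRF2, IRF3, IRF9, IFIH1, ISG15 and MX1. They were taken by symbol from the deposited table of 30249 genes, and all 9 of 9 were found and tested. Muscle RNA came from biopsies of the vastus lateralis, a thigh muscle, of 6 free-ranging brown bears (Ursus arctos) aged 2 to 3 years. Each bear was sampled during winter hibernation in February and again in the active period in June of the same year, which gave 6 winter and 6 summer libraries. The groups differed by season, and no bear received an experimental treatment. The animals were captured and anaesthetised for both biopsies by an established protocol. Whether the capture method, drugs and doses were the same in both seasons is not stated. The question asked of the series was how the muscle transcriptome differs between active and hibernating bears, and here it was asked of this antiviral programme.

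Interferons are secreted by cells that sense viral nucleic acid, and they act on neighbouring cells through receptors coupled to Janus kinases. Type I interferon leads to a complex that holds STAT2 and IRF9, called ISGF3, which switches on antiviral genes such as ISG15 and MX1 through a DNA element also read by other IRF proteins. Low activity of this pathway persists in uninfected tissue and sets the resting level of its target genes.

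The effectors ISG15 and MX1 were lower in winter, to 0.327 and 0.496 times their summer levels, and STAT2, the signal transducer, was lower to 0.716 times. The other members, STAT3, IRF1, IRF2, IRF3, IRF9 and the RNA sensor IFIH1, did not pass the test. The test was the quasi-likelihood test of edgeR, with p-values adjusted by Benjamini-Hochberg over the 17290 genes that had at least 30 reads and with season as the only term. A gene was called where the adjusted p was below 0.05. Each adjusted p is from this test unless another is named, and SE is the standard error of the log2 fold change, winter over summer. By this test 3 of the 9 genes were lower (33.3%) and 0 were higher, beside 19.9% of all genes tested lower and 19.6% higher (39.5% in either direction). With a replicate block for the bear the same 3 of 9 were lower and 0 higher, beside 21.2% and 19.6% of all genes (40.8% in either direction). DESeq2 called 4 of the 9 lower and 0 higher, where of 17001 genes it called 3621 lower and 3530 higher. Before adjustment, p was below 0.05 for 4 lower and 0 higher genes, and the share of all genes is not given here. The median log2 fold change of the 9 genes was −0.25, where that of all genes tested was −0.0021. Levels are given in CPM, the reads of a gene relative to the library's total after edgeR's TMM scaling, and are not compared between genes, since they are not corrected for transcript length.

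**Figure D1:**
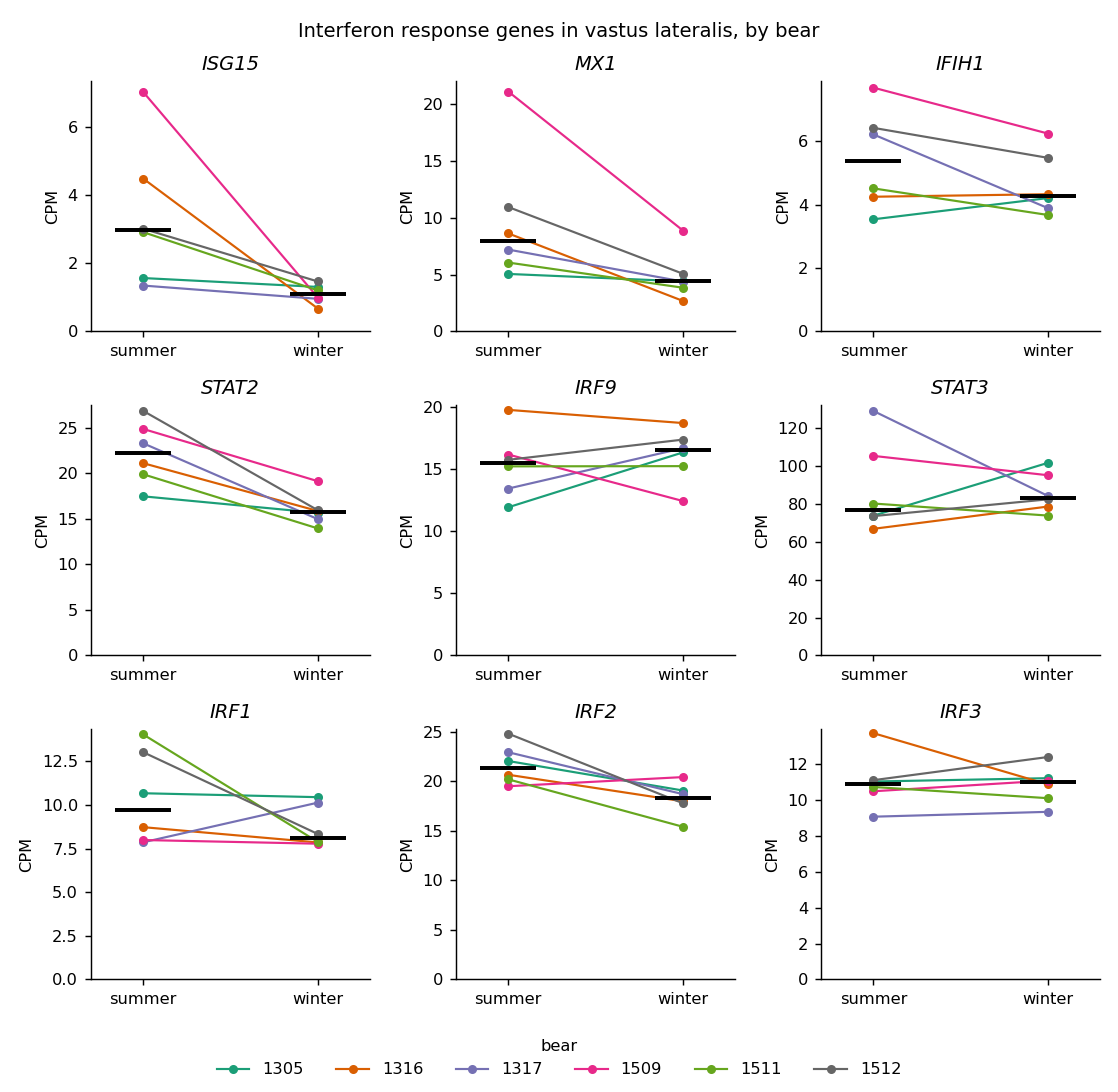
Level of each of the 9 genes in CPM (vertical axis, from 0) in the summer and winter library of each of 6 bears. Lines join the libraries of a bear and black bars mark season medians. ISG15, MX1 and STAT2 lines fall in 6 of 6 bears, while those of STAT3, IRF3 and IRF9 run in both directions.

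ISG15 encodes a ubiquitin-like protein that is coupled to other proteins during the interferon response. Its summer levels ran from 1.35 CPM in bear 1317 through a median of 2.96 to 7.03 in bear 1509, and its winter levels from 0.672 in bear 1316 through 1.10 to 1.47 in bear 1512. The winter libraries were low and close together, and 5 of 6 lay below the lowest summer library. ISG15 was called lower, at a log2 fold change of −1.61 (SE 0.37, adjusted p = 0.00388). The drop differed widely between bears. It was −2.72 on the log2 scale in bear 1509 and −2.59 in bear 1316, the bears with the highest summer levels, and −0.25 in bear 1305 and −0.46 in bear 1317, those with the lowest. Since winter levels lay close together, this order of the drops follows largely from the subtraction. Depth is a limit for this gene, which had 16 to 160 reads per library.

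MX1 encodes a dynamin-like GTPase that blocks the replication of several RNA viruses. In summer it lay at 5.06 CPM at the lowest, 7.92 at the median and 21.1 at the highest, again in bear 1509. In winter it lay at 2.69, 4.40 and 8.88 CPM, and the highest value was once more that of bear 1509. The season groups overlapped through this bear and bear 1512, and 4 of 6 winter libraries lay below the lowest summer library. MX1 was lower in 6 of 6 bears, by −1.65 to −0.20 on the log2 scale, and the fit put it at −1.01 (SE 0.35, adjusted p = 0.0327). The call was lost without bear 1316 (adjusted p = 0.0805), bear 1317 (0.062) or bear 1512 (0.0837). A fit with a replicate block for the bear gave 0.00284, and over 16 alternatives it ran from 7.49e-05 to 0.0837. MX2, the paralog of MX1, was lower in 5 of 6 bears but not called (log2 fold change −0.56, adjusted p = 0.104), except without the winter library of bear 1509 (0.0444). It was named after its value was seen, and reads shared by such similar genes cannot be assigned with certainty.

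IFIH1, also called MDA5, senses long double-stranded RNA in the cytosol and is itself induced by interferon. It was counted at 3.53 to 7.68 CPM in summer (median 5.36) and at 3.67 to 6.24 in winter (median 4.26). The groups overlapped, and in both seasons the highest library was that of bear 1509. It was not called, at −0.23 (log2, SE 0.21, adjusted p = 0.402), and 4 of 6 bears had a lower winter value.

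Of the factors that carry the interferon signal, STAT2 was measured at 17.5 to 26.9 CPM in summer (median 22.2) and at 14.0 to 19.1 in winter (median 15.8). In winter 5 of 6 libraries lay below the lowest summer library, and the exception was that of bear 1509. The difference was smaller than for ISG15 but more even between bears, from −0.75 to −0.16 on the log2 scale and lower in 6 of 6. The fit gave −0.48 (log2, SE 0.12, adjusted p = 0.00584).

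IRF9, the DNA-binding subunit of ISGF3, was at 11.9, 15.5 and 19.7 CPM in summer (lowest, median, highest) and at 12.4, 16.5 and 18.7 in winter. It was not called, at 0.07 (log2, SE 0.13, adjusted p = 0.702), with a higher winter value in 4 of 6 bears, and the estimate was −0.0091 when libraries were scaled by their totals. Of these ISGF3 members STAT2 passed the test and IRF9 did not, and the difference between them was not tested.

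STAT3 answers to interleukin 6 and related cytokines as well as to interferon. Summer levels spread from 66.9 CPM in bear 1316 to 129 in bear 1317 (median 77.0), and winter levels lay inside that range, from 73.9 to 102 (median 83.4). It was higher in winter in 3 bears and lower in 3, with bear 1305 at 0.46 and bear 1317 at −0.62 on the log2 scale. The fit gave −0.04 (log2, SE 0.16, adjusted p = 0.874) over all bears and 0.11 without bear 1317.

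IRF1 activates interferon-stimulated genes and IRF2 competes with it for the same DNA sites. IRF1 was at 7.86 to 14.0 CPM in summer (median 9.70) and at 7.78 to 10.4 in winter (median 8.11). It was not called, at −0.25 (log2, SE 0.17, adjusted p = 0.252). The bears differed, with −0.83 and −0.64 on the log2 scale in bears 1511 and 1512 and 0.36 in bear 1317.

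IRF2 had a log2 fold change of the same size, −0.25, with a smaller standard error (0.10). It was at 19.5 to 24.8 CPM in summer (median 21.3) and at 15.4 to 20.4 in winter (median 18.3), lower in 5 of 6 bears. Its adjusted p of 0.0545 lay just above the threshold. It was below the threshold with library totals (0.0435), in DESeq2 (0.0386), without bear 1509 (0.0367) and without the winter library of that bear alone (0.0355), within 0.0355 to 0.169 over the alternatives. The reads of IRF2 per read of IRF1, a ratio in which transcript length plays no part between seasons, ran from 1.44 to 2.92 in summer and from 1.82 to 2.62 in winter, so the winter ratios lay within the summer range.

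IRF3 is the factor that turns nucleic acid sensing into the first interferon transcripts, and it is regulated mainly by phosphorylation. It was measured at 9.08, 10.9 and 13.7 CPM in summer and 9.35, 11.0 and 12.4 in winter (lowest, median, highest). The winter range lay within that of summer, and the gene was not called, at −0.02 (log2, SE 0.12, adjusted p = 0.889).

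**Figure D2:**
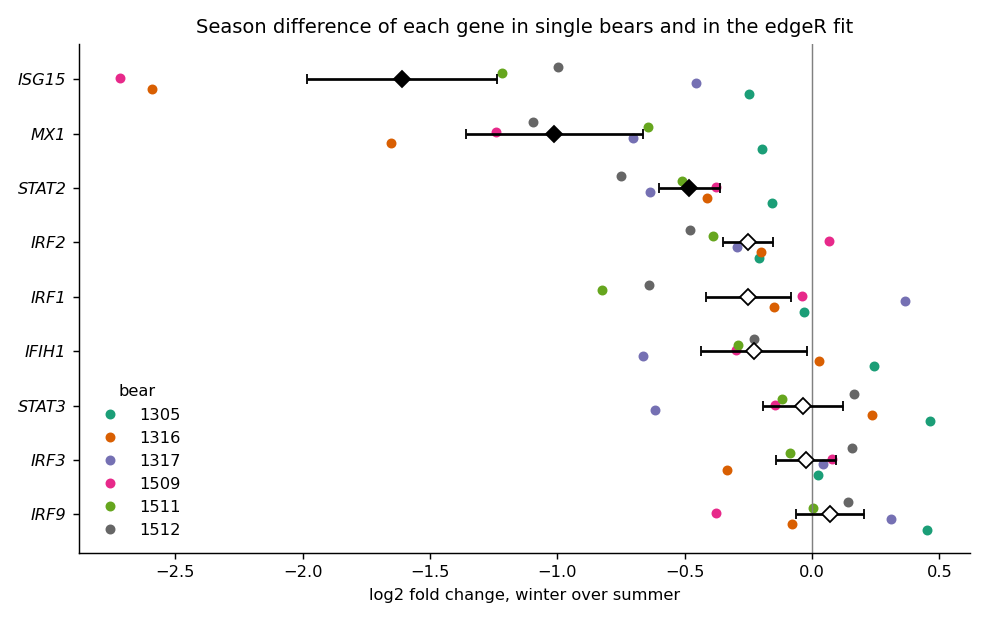
Log2 fold change of winter over summer (horizontal axis) for each gene, with coloured points for the 6 bears and diamonds for the edgeR fit with its standard error. Filled diamonds mark an adjusted p below 0.05. ISG15, MX1 and STAT2 have the filled diamonds and every point left of 0, and the points of ISG15 spread from −2.72 to −0.25.

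Across bears, ISG15, MX1 and STAT2 were each lower in winter in 6 of 6, as were 19% of all genes tested. For each of these genes bear 1305 had the smallest drop. None of the 9 genes had winter and summer libraries that did not overlap in CPM (0 of 9), which 17.3% of all genes tested had (9.12% higher and 8.21% lower in winter). By the stricter limits of the study's methods, a fold change over 1.3 or under 0.77 at an adjusted p under 0.01, ISG15 and STAT2 were called lower, 2 of 9, and 0 were called higher, beside 12% of all genes lower and 12% higher (24% in either direction).

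Within a season, the highest correlations between bears were among STAT2, IFIH1 and MX1. On deviations of log2 CPM from the season means over the 12 libraries, Pearson's r was 0.91 for STAT2 with IFIH1, 0.80 for IFIH1 with MX1 and 0.75 for STAT2 with MX1. Bear 1509 was highest for MX1 and IFIH1 in both seasons and for STAT2 in winter, so its libraries weigh on these values. For MX1 it lay at 4.41 log2 CPM in summer (nearest 3.47) and 3.17 in winter (nearest 2.37). The r without this bear is not given here. ISG15 was at 0.67 with MX1 but at 0.33 with IFIH1 and 0.27 with STAT2. Between these 4 genes and the other factors r ran from −0.42 for IRF2 with ISG15 to 0.57 for STAT3 with IFIH1, and lay at 0.51 both for STAT2 with IRF2 and for IRF9 with ISG15. Over the 36 pairs r ran from −0.55, for STAT3 with IRF3, to 0.91, with a median of 0.07. These values describe 12 libraries of 6 bears that share scaling, and libraries of a bear are not independent.

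**Figure D3:**
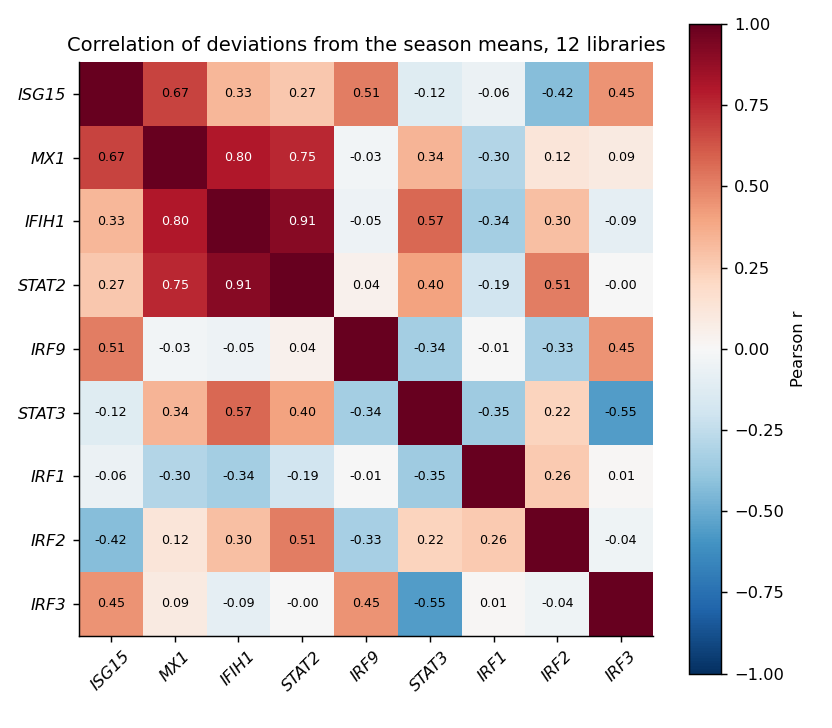
Pearson's r between each pair of the 9 genes, as a colour from −1 (blue) to 1 (red), computed on deviations from the season means in 12 libraries. The red block of MX1, IFIH1 and STAT2 holds values of 0.75 to 0.91, on which the libraries of bear 1509, highest for MX1 and IFIH1 in both seasons, weigh.

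Of 13489 other genes with a symbol, those most like IFIH1 in this measure were SAMD9L (r = 0.94), an antiviral restriction factor, CPEB4 (0.93), an RNA-binding protein that controls poly(A) tails, and STAT2 itself (0.91). For MX1 they were SNX10 (0.94), a sorting nexin, HSPBAP1 (0.93) and USP18 (0.92), the protease that removes ISG15 from proteins and dampens interferon receptor signalling. Like MX1, HSPBAP1 and USP18 were highest in bear 1509 in both seasons, and SNX10 in winter. ISG15 was most like RAC2 (0.87), a small GTPase of blood cells, LSM7 (0.85), an RNA-processing subunit, and PSMB8 (0.79), an immunoproteasome subunit. The highest of 13489 r values over 12 libraries are raised by selection. How far selection alone would raise them was not tested. Shared regulation was not tested. Their season differences varied. SAMD9L was lower in winter (log2 fold change −0.59, adjusted p = 0.0237, but 0.0507 to 0.0681 without bear 1316, 1317 or 1512), as was RAC2 (−1.13, adjusted p = 0.0133), whereas SNX10 was at 0.76 (adjusted p = 0.122).

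Other genes of the pathway, and genes around STAT3, were described by lists, with 148 genes tested together. The lists include cytokines and receptors that act through STAT3, genes known as STAT3 targets and IRF2-binding proteins. The pooled counts are thus not of interferon genes alone. Of the 148 genes, 43 were lower in winter (29.1%) and 15 higher (10.1%), with a median log2 fold change of −0.25. Over all genes tested the shares were 19.9% and 19.6% and the median −0.0021. At the stricter limits 23 of the 148 were lower and 8 higher, beside 12% of all genes in each direction.

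Among ligands, IFNB1 and IFNE had 0 reads, which allows up to 3 reads of 276837142, or 0.0108 CPM, and IFNG had 1 read in all libraries together. IFNK, the ligand with enough reads to be tested, had 2 to 10 reads per library and was not called (log2 fold change −0.93, adjusted p = 0.0992, p below 0.05 before adjustment for this 1 gene, and 0 called in DESeq2). The interferon transcripts measured were thus at or near the limit of detection in both seasons.

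Of 5 receptor genes tested, 1 was lower (20%) and 1 higher (20%), beside 19.9% and 19.6% of all genes. IFNAR1, a chain of the type I receptor, was called lower (−0.39 on the log2 scale, 6 of 6 bears, adjusted p = 0.0106), and IFNGR1, a chain of the interferon-gamma receptor, was higher in 6 of 6 (0.32, adjusted p = 0.0274). The call of IFNGR1 was lost without bear 1305 (adjusted p = 0.128) or bear 1316 (0.0967), when libraries were scaled by their totals (0.141) and without the filter (0.0506). IFNLR1 was at 0.69 (adjusted p = 0.153).

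Of the 4 Janus kinases, which sit on these receptors, 1 was lower and 0 higher (DESeq2 called 0 higher, and 1 had p below 0.05 before adjustment). The share lower was 25%, beside 19.9% of all genes lower and 19.6% higher. TYK2 was called lower at −0.32 on the log2 scale (5 of 6 bears, adjusted p = 0.0314), but not with a replicate block for the bear (0.0723) nor, at 0.0524 to 0.121, without bear 1316, 1317, 1509 or 1511 or the winter library of bear 1509. JAK2 was lower in 6 of 6 bears at −0.46 and not called (adjusted p = 0.0783). It was called with the replicate block (0.00809), without bear 1509 (0.0273) and without that bear's winter library (0.0116). JAK1 was at 0.22 (adjusted p = 0.0984).

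Among 4 other STAT factors, 1 was lower and 0 higher (DESeq2 called 0 higher, and 1 had p below 0.05 before adjustment). The share lower was 25%, beside 19.9% of all genes lower and 19.6% higher. STAT6, which serves interleukin 4, was called lower at −0.33 (6 of 6 bears, adjusted p = 0.0238), though not called without bear 1317 (0.0889) or bear 1512 (0.0845). STAT5A was at 0.40 (adjusted p = 0.0777) and was called without bear 1316 (0.017), without bear 1509 (0.0466), without the winter library of bear 1509 (0.0432) and in limma voom (0.0424). STAT4, with 1 to 14 reads per library, was at −0.66 (adjusted p = 0.248).

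Of 5 other IRF factors, 2 were lower (40%, beside 19.9% of all genes) and 0 higher (0 before adjustment and 0 in DESeq2). These were IRF8, a factor of the macrophage lineage, at −0.98 (SE 0.25, adjusted p = 0.00697), and IRF5, also of immune cells, at −0.94 (SE 0.28, adjusted p = 0.0163). IRF5 had 7 to 27 reads per library and was not called without bear 1317 (0.0657), without bear 1512 (0.0617) or in DESeq2 with the replicate block (0.0676). IRF4 was at −0.83 (adjusted p = 0.135).

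Nucleic acid sensors and their adaptors numbered 21, of which 5 were lower (23.8%) and 2 higher (9.52%), beside 19.9% and 19.6% of all genes. DDX58, the RNA sensor RIG-I and a relative of IFIH1, was lower in 6 of 6 bears (log2 fold change −0.96, SE 0.20, adjusted p = 0.00213). TICAM1, the adaptor of TLR3, was lower in 6 of 6 (−1.59, adjusted p = 0.00602) with 3 to 43 reads per library. TLR9, the sensor of unmethylated CpG DNA, moved the other way, at 2.62 on the log2 scale (SE 0.48, adjusted p = 0.000866), higher in 6 of 6 bears at 40 to 914 reads per library.

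Type I interferon-stimulated genes, the class of ISG15 and MX1, gave 13 lower and 2 higher of 39 tested, or 33.3% and 5.13%, beside 19.9% and 19.6% of all genes. Their median log2 fold change was −0.34. OAS1, listed in the files as LOC113266985 and named by its gene ID, makes short RNA messengers when it meets double-stranded RNA, and it was lower in 6 of 6 bears (−1.32, SE 0.17, adjusted p = 8.14e-05). SAMHD1, which depletes nucleotides that viruses need, was lower in 6 of 6 (−1.303, SE 0.18, adjusted p = 0.000103). The members that were higher, NMI (0.60, adjusted p = 0.0111) and TDRD7 (0.48, adjusted p = 0.0299), were named after their values were seen. TDRD7 was not called with library totals (0.107) or, at 0.0512 to 0.0982, without bear 1305, 1509, 1511 or 1512 or the winter library of bear 1509.

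The 7 genes that attach ISG15 to proteins or remove it gave 1 lower (14.3%, beside 19.9% of all genes) and 0 higher (0 before adjustment and 0 in DESeq2), or 2 lower with the replicate block, with a median log2 fold change of −0.02. ARIH1, a ligase that also serves ubiquitin, was at −0.30 (adjusted p = 0.0315) and lost its call without bear 1305, 1317, 1511 or 1512 (0.0766 to 0.101). USP18 was at −0.59 (adjusted p = 0.0846), and was called with the replicate block (0.0384) and without the winter library of bear 1509 (0.0237). HERC5, the main ISG15 ligase in humans, was at 0.35 (adjusted p = 0.181).

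Of 22 interferon-gamma and antigen presentation genes, 6 were lower (27.3%) and 2 higher (9.09%), beside 19.9% and 19.6% of all genes. CD74, the chaperone of MHC class II, was at −1.29 (adjusted p = 0.000663) and CIITA, the activator of class II genes, at −1.16 (adjusted p = 0.00127), both lower in 6 of 6 bears. LAP3, an aminopeptidase, was at −0.41 (adjusted p = 0.0038), lower in 6 of 6. The members that were higher, named after their values were seen, were GBP5 and CXCL9. GBP5, an interferon-induced GTPase listed as LOC113254435, was at 1.72 (adjusted p = 0.00576, 6 of 6 bears) with 3 to 39 reads per library. CXCL9, a chemokine induced by interferon-gamma, was at 0.97 (adjusted p = 0.0401, 5 of 6 bears). CXCL9 was not called with library totals (0.0572), with the replicate block (0.0662), in limma voom (0.0999) or without bear 1305, 1316, 1317 or 1512 (0.0531 to 0.177).

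Suppressors of JAK-STAT signalling gave 5 lower (27.8%) and 6 higher (33.3%) of 18, beside 19.9% and 19.6% of all genes. This list also holds IRF2-binding proteins, which are not JAK-STAT suppressors. Of them IRF2BP1 was among the higher (0.63, adjusted p = 0.0367) and IRF2BP2 among the lower (−0.40, adjusted p = 0.0389). SOCS2 was lower (−1.304, adjusted p = 0.000158), whereas SOCS6 (0.71, adjusted p = 0.00101) and SOCS7 (0.62, adjusted p = 0.0014) were higher, each in 6 of 6 bears. SOCS1, the classical brake of interferon signalling, had 5 reads in all and was not tested.

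Around STAT3, cytokines and receptors that act through it gave 3 lower (23.1%) and 2 higher (15.4%) of 13, beside 19.9% and 19.6% of all genes. CNTF, a cytokine of nerve and muscle, was higher in 6 of 6 bears (0.66, adjusted p = 0.000203) and its receptor CNTFR lower in 6 of 6 (−1.62, adjusted p = 0.000411), as was IL10RA (−0.98, adjusted p = 0.00394). Of 16 genes known as STAT3 targets, 6 were lower (37.5%, beside 19.9% of all genes) and 0 higher (0 before adjustment and 0 in DESeq2), with a median log2 fold change of −0.50. The lowest p belonged to VEGFA, an angiogenic factor (−1.19, adjusted p = 1.89e-05), CCND1, cyclin D1 (−2.26, adjusted p = 0.000101), and BCL3, a partner of NF-κB (−0.99, adjusted p = 0.00174). These genes have many regulators besides STAT3.

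**Figure D4:**
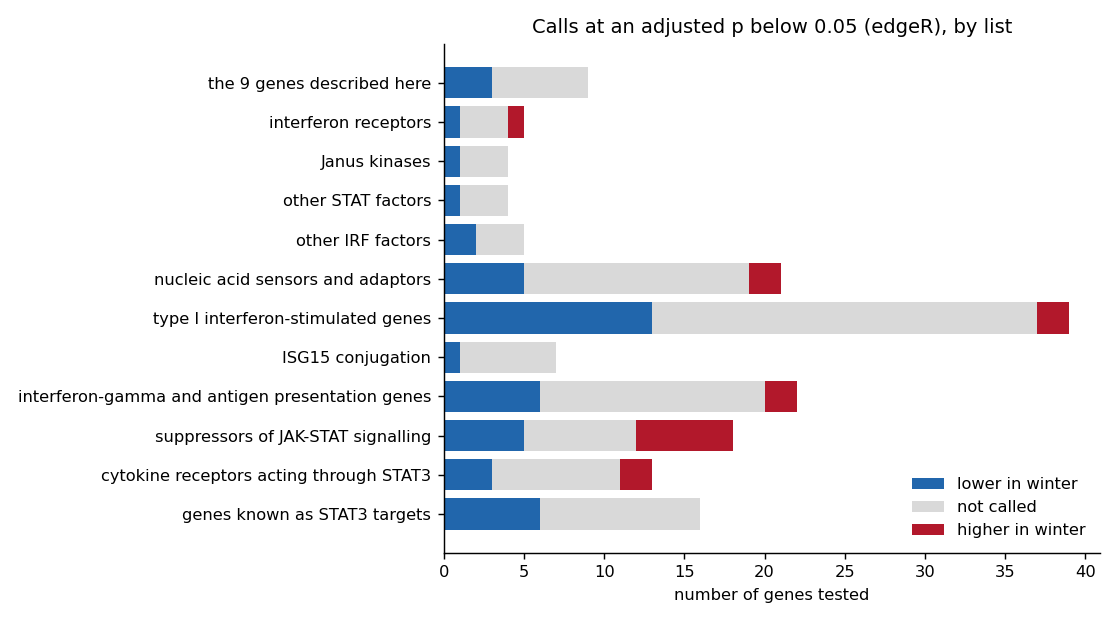
Number of genes tested in each list (horizontal axis), split into those lower in winter (blue), not called (grey) and higher (red) at an adjusted p below 0.05 in edgeR. Type I interferon-stimulated genes show 13 lower and 2 higher of 39, and suppressors of JAK-STAT signalling 5 lower and 6 higher of 18. The suppressor list includes IRF2-binding proteins.

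Macrophage, leukocyte, endothelial and fibroblast markers were lower in winter for most of the genes tested, and neutrophil and erythroid markers were not called. Each count of markers stands beside 19.9% of all genes tested lower and 19.6% higher. Muscle identity was clear, with 8 muscle genes summing to 99768 to 169935 CPM per library and 1 of 8 lower and 1 higher. ACTA1 was lower (−0.90, adjusted p = 0.0212, and not called without bear 1305, 1316 or 1509, at 0.0619 to 0.0834), TTN was higher (0.65, adjusted p = 0.0036), and MYBPC1 was at 0.23 (adjusted p = 0.159, but 0.0367 in DESeq2, which called 2 muscle genes higher). Macrophage markers were lower in 7 of 9 tested (77.8%) and summed to 101 to 159 CPM in summer and 42.2 to 83.9 in winter, with no overlap. Among single genes, 17.3% of all tested had no overlap (8.21% lower in winter). That share is not one for sums of genes. C1QC (−2.20), C1QB (−2.29) and C1QA (−1.63), chains of complement C1q, had the lowest p. MARCO, with 17 reads in all, was at 0 in a library. Leukocyte markers, 3 of 5 lower, summed to 31.0 to 48.2 CPM in summer and 14.9 to 34.5 in winter. They were led by LAPTM5 (−1.02), LCP1 (−0.89) and CD53 (−0.97), of which CD53 was not called without bear 1317 (adjusted p = 0.0533). Endothelial markers were lower in 5 of 7 and higher in 1. They summed to 638 to 970 CPM in summer and 445 to 514 in winter, also with no overlap. VWF was at −1.28, CDH5 at −1.03 and KDR at −0.98. The higher marker was ERG (0.46, adjusted p = 0.00383, 6 of 6 bears), and TEK was not called (−0.09, adjusted p = 0.718). ERG and TEK were named after their values were seen. Of 6 fibroblast markers 4 were lower, led by COL1A1 (−4.59), DPT (−1.85) and COL3A1 (−4.17). PDGFRA (−0.49, adjusted p = 0.0772) and DCN (−0.75, adjusted p = 0.0848), named after their values were seen, were not called. With the replicate block 5 of the 6 were lower, beside 21.2% of all genes. Their sums were 3113 to 7951 CPM in summer and 234 to 1309 in winter, also with no overlap. The collagens COL3A1 and COL1A1 had the highest mean summer levels of the 6, so the summer sums weigh most on them. These values are log2 fold changes from edgeR.

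**Figure D5:**
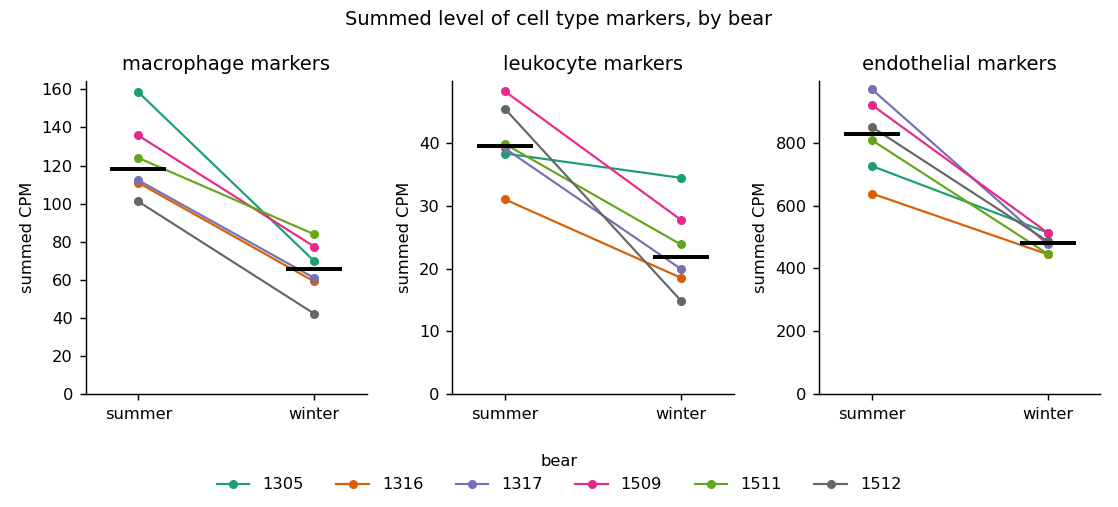
Summed CPM (vertical axis, from 0) of macrophage, leukocyte and endothelial markers in the summer and winter libraries of 6 bears, with lines joining a bear and black bars at the medians. Macrophage sums of 101 to 159 in summer and 42.2 to 83.9 in winter do not overlap. Endothelial sums do not overlap either, and leukocyte sums do. Of all single genes tested, 17.3% did not overlap (8.21% lower in winter).

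T cell markers gave 2 lower of 5 (40%, beside 19.9% of all genes), CD3E (−1.44) and CD2 (−0.69). CD3E had 2 to 24 reads per library. CD3D (−0.24, adjusted p = 0.704) and CD3G (0.01, adjusted p = 0.985), named after their values were seen, were not called. With the replicate block 1 of the 5 was lower, beside 21.2% of all genes, and CD2 was at an adjusted p of 0.0537. CD2 was also not called without bear 1305, 1316, 1511 or 1512 (0.0622 to 0.106). T cell markers summed to 2.28 to 4.58 CPM in summer and 1.50 to 2.57 in winter, and CD247 was at −0.49. Of 3 neutrophil markers 0 were called in edgeR (0 before adjustment and 0 in DESeq2), with sums of 0.239 to 8.47 CPM in summer and 1.08 to 5.47 in winter. S100A9, S100A8 and CSF3R were at −1.02, −0.83 and −0.62. Of 4 adipocyte markers 1 was higher (25%, beside 19.6% of all genes) and 0 lower (1 lower before adjustment, 0 in DESeq2). This was LEP, with 0 to 19 reads per library, at 2.79 (adjusted p = 0.0366). LEP was not called with the replicate block (0.0629) or without bear 1317, 1511 or 1512 (0.100 to 0.146), and PLIN1 was at −0.93. CIDEC was at −2.43 and not called, but was called lower without bear 1511 (−3.29, adjusted p = 0.0282). Their sums were 16.4 to 486 CPM in summer and 8.27 to 183 in winter. Both tested erythroid markers, HBA1 (0.80) and ALAS2 (0.25), were not called, though HBA1 was called higher without bear 1509 (1.39, adjusted p = 0.0323), and their sums were 3.17 to 65.6 CPM in summer and 34.4 to 56.8 in winter. The part of these cells in the lower ISG15, MX1 and STAT2 was not tested. In bulk muscle, fewer cells of a type and less RNA per cell cannot be told apart.

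Depth was 16742406 to 32140160 reads per library. The 9 genes had 16 reads at the lowest, for ISG15, and 2975 at the highest, for STAT3. In a newer annotation of the species, UrsArc2.0, the spans of 4 of the 9 genes (STAT2, IRF1, IRF3 and IFIH1) overlap another gene. Reads were counted by strand, and overlap in the build used was not examined, so some reads of these genes may be assigned with less certainty.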

How the data were processed

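The authors deposited raw counts per gene, whole numbers without normalization. Reads from stranded mRNA libraries, 50 bases from a single end, had been placed on ASM358476v1 by TopHat 2.1.1 and counted per strand by featureCounts 1.6.2. From these counts, genes under 30 reads over 12 libraries were left out, which kept 17290, and winter was compared with summer with R 4.3.3, edgeR 4.0.16 (TMM, glmQLFit and glmQLFTest, season as the only term). Log2 CPM used a prior count of 2. Alternatives were the bear as a replicate block, DESeq2 1.42.0, limma 3.58.1 (voom), other scalings and filters, the study's stricter limits, each bear left out, and the winter library of bear 1509 left out.

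The same bears were sampled in both seasons by the study's methods. Libraries of the same bear deviated together from their season means (r = 0.0903 to 0.344), and the median r between different bears was −0.0634. This r was not over 0.1 for every bear.

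Earlier results of these data were known when the 9 genes, their lists and the naming rule were chosen. The rule names all 9 genes, the 3 tested genes of each list with the lowest p (an item withheld for evaluation is not reported here), and the 3 genes most like ISG15, MX1 and IFIH1. Of 247 list symbols, 220 were found, 6 of them through RefSeq gene IDs. Gene and promoter sequences were not used here. Positions, from a gene table of another build, were used only for the overlaps of genes given above. On simulated data of 17041 genes for winter against summer in 6 bears, with 200 genes changed, edgeR recovered 63% of the 2-fold and 97% of the 4-fold changes and called 4 others. No libraries of a season agreed within sampling noise (lowest chi-square per gene 35.8).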

Additional observations from a re-analysis of the deposited data

Results flagged for a closer look

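Among the 6 libraries of a season, an extreme library was set apart if the distance to its neighbour was too large a share of the whole range by Dixon's test at the 95% level. Chance gives about 1 flag in 20 groups. Of 162 groups 5 were flagged, and 0 of them belonged to the 9 interferon response genes. IFNK lay at −1.67 log2 CPM in the winter library of bear 1512, above the other winter libraries, the nearest at −2.26. IRF5 lay at −0.63 in the summer library of bear 1511, below the others, the nearest at 0.07. IRF4 lay at −0.39 in the winter library of bear 1317, where the nearest was at −1.11. The adipocyte markers CIDEC, at 6.01, and PLIN1, at 6.22, were highest in the summer library of bear 1316, with the nearest libraries at 2.34 and 2.68.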

How the results depend on the processing

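Of the 9 genes, ISG15 and STAT2 were called lower under each of 16 alternatives, and MX1 under 13. Its log2 fold changes with no call were −0.92 without bear 1316, −1.06 without bear 1317 and −0.99 without bear 1512. Leaving out libraries moved ISG15 between −1.83 and −1.23, MX1 between −1.26 and −0.88, STAT2 between −0.55 and −0.42, and IRF2 between −0.30 and −0.20. IRF2 was called at −0.33 with library totals and −0.24 in DESeq2. STAT3 turned to 0.0044 in DESeq2 with the replicate block, 0.0005 without bear 1509 and 0.11 without bear 1317 (−0.15 to 0.11 over left-out libraries). IRF3 turned to 0.05 without bear 1316 (from −0.0618 to 0.0514), and IRF9 to −0.0091 with library totals and −0.0114 without bear 1305 (up to 0.16). These reversals were of genes not called in any alternative. The number of the 9 genes called lower ran from 2 to 4, and 0 were called higher. Over all genes 2715 to 3789 were called lower and 2541 to 3530 higher in these settings. At the stricter limits 8 of the 148 list genes were higher and 23 lower, and over all genes 2077 and 2077, against 3386 and 3445 as reported. The cause of these shifts was not tested, beyond the fewer calls that stricter limits give by construction. With the bear as a replicate block in edgeR, ISG15 was at −1.43 (adjusted p = 0.00894), MX1 at −0.94 (0.00284) and STAT2 at −0.48 (0.0061), and the block changed no call among the 9 genes. PLIN1 turned to 0.22 in edgeR and 0.30 in DESeq2 with the block and to 1.19 without bear 1316 (−1.90 to 1.19), and ALAS2 to −0.04 without bear 1509 and −0.25 without its winter library (up to 0.80). Depth limits ISG15 most, at 16 to 45 reads in winter.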
